A study of Mus musculus with 6 samples.

Results

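The genes described here code for the subunits, assembly chaperones and regulators of the proteasome, and they were followed through chronic and cyclic hypoxia in B16 cells, a mouse melanoma line. Members were the genes named alone by a probe set on the array and whose current symbol begins with Psma, Psmb, Psmc, Psmd, Psme, Psmf or Psmg, with 1 gene left out by the rule. The rule used names and no measured difference between arrays. It found 47 genes of the 12393 named on the array, on 84 probe sets of 22690. The brightest probe set stood for each gene, and 46 of the 47 passed a filter on low signal, among 7746 genes that passed it. The remaining member, Psma8, which codes for a testis-specific core subunit, had 5 of its 6 values under the floor of 2.10 units and is not described further.

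There were 6 Affymetrix arrays, 1 per group, all hybridised with biotinylated cRNA prepared from 5 µg of total RNA. The 4 hypoxia groups were chronic hypoxia (3 h at less than 1% oxygen), cyclic hypoxia (3 periods of 1 h of hypoxia with 30 min of reoxygenation between them), and each of these regimes followed by 1 h of reoxygenation. The 2 control groups were cells kept in normoxia for 3 h and cells kept in normoxia for 1 h more. All cells had been grown in alpha MEM with serum and were moved to serum-free medium 2 h before the exposure, so the controls were serum-deprived too. The labels do not state that the controls lasted as long as the cyclic regime with its pauses, nor whether the cultures were separate. No group has a replicate, so the difference of any 2 arrays carries no error, and the comparisons of single arrays below are descriptions without a test. Chronic and cyclic hypoxia share the normoxia array at the end of exposure, and both reoxygenated groups share the array of normoxia + 1 h.

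The proteasome is the protease that degrades proteins tagged with ubiquitin. Its core particle is a barrel of stacked rings, with alpha subunits forming the gates at both ends and beta subunits carrying the proteolytic sites inside. A regulatory particle caps the barrel: its base holds the ring of ATPases that unfolds substrates and threads them into the core, and its lid removes the ubiquitin. Dedicated chaperones assemble core and base separately, other activators can replace the regulatory particle, and interferon exchanges the active beta subunits for immunoproteasome variants. Cells that lose proteasome activity raise the subunit genes together through the transcription factor Nfe2l1.

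Melanocyte genes were expressed, as the label melanoma would have it: all 6 measured (Dct, Tyr, Tyrp1, Pmel, Mitf and Sox10) passed the filter, with mean signals of 1126 to 6064. Of the measured markers of immune cells (3), endothelium (3), fibroblasts (3) and keratinocytes (2), Cd68 (mean signal 34.6) and Krt5 (10.0) passed it and the others did not. The array of cyclic hypoxia with reoxygenation stood apart from the others: its mean correlation with them was 0.940, against 0.962 to 0.966 for each other array, and its median signal was 15.9, against 17.4 or more. Centring each array on its median moved every gene of that array up by 0.19 on the log2 scale relative to normoxia + 1 h. The effect of this on the values below was not tested beyond the scalings given beside them.

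As a group, the proteasome genes varied over the 6 arrays about as much as other bright genes. The ratio of a gene's highest to its lowest signal had a median of 1.41 over the 46 members. It was 1.47 over the 3573 genes with a mean signal at or above 100, a class that 41 of the members belonged to. Over the 414 genes at or above 1000 it was lower than for the members, at 1.35, and over all 7746 genes it was 1.66. The steadiest members were Psmc5, an ATPase of the base, and Psma6, a gate subunit, both with a ratio of 1.09, and Psmd14, the lid enzyme that cuts off ubiquitin, with 1.13. A ratio of 2-fold or more was reached by 3 members, 6.52% of them. It was reached by 15.6% of genes at or above 100, 4.11% of those at or above 1000 and 31.0% of all genes. The 3 members were Psme4 with 3.39, Psmc6 with 2.65 and Psmc3ip with 2.46. Each array holds RNA from a whole culture, so a lower signal from fewer expressing cells and one from less RNA per cell cannot be told apart.

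**Figure D1:**
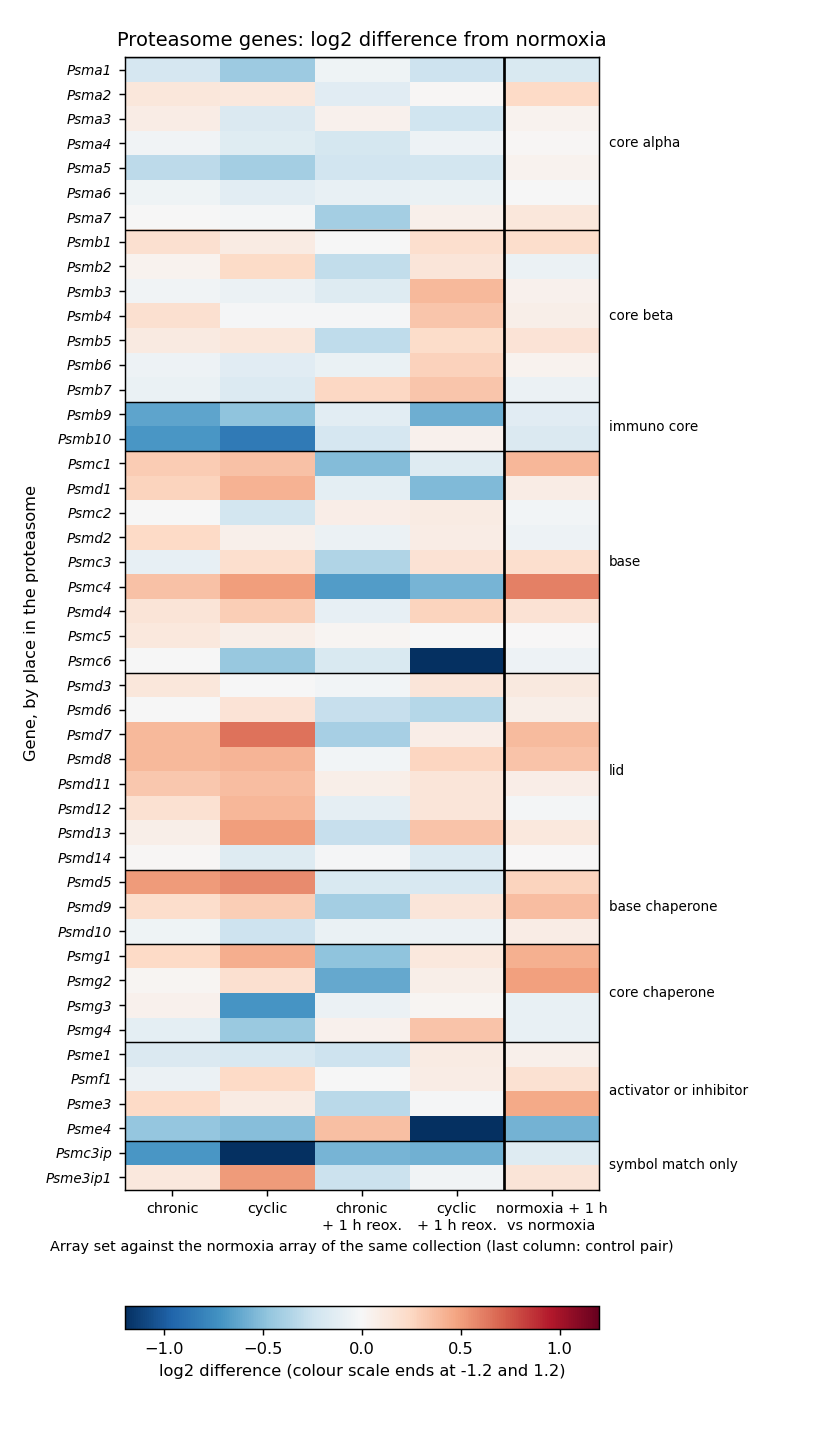
Log2 difference of each proteasome gene (rows, grouped by place in the complex) from the normoxia array of the same collection, for the 4 hypoxia arrays and, in the last column, for normoxia + 1 h against normoxia. Most cells are pale; the darkest are Psmc6 and Psme4 in cyclic hypoxia with reoxygenation (-1.34 and -1.19) and Psmc3ip in cyclic hypoxia (-1.30).

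Few members differed from normoxia by 1.5-fold or more, the fold used for all counts here (0.58 on the log2 scale). In chronic hypoxia 0 members were higher by that much, where 7.91% of all genes and 5.12% of genes at or above a mean of 100 were, and 3 were lower (Psmb9, Psmb10 and Psmc3ip), where 8.39% and 3.27% of genes were. In cyclic hypoxia 1 member was higher (Psmd7; 8.44% of all genes and 7.08% of those at or above 100) and 3 were lower (Psmb10, Psmc3ip and Psmg3; 14.7% and 6.8%). After chronic hypoxia with reoxygenation 0 were higher (8.82% and 2.99%) and 2 were lower (Psmc4 and Psmg2; 5.05% and 1.85%). After cyclic hypoxia with reoxygenation 0 were higher (10% and 4.81%) and 3 were lower (Psmb9, Psmc6 and Psme4; 19.7% and 15.3%). The share of members was under that of all genes in each of these counts. Psmb9 and Psmc3ip have mean signals under 100. Among the 41 members at or above 100 there was 1 lower gene in chronic hypoxia and there were 2 in each other hypoxia array, which is 2.44% and 4.88%. The last share was over that of all genes at or above 100 after chronic hypoxia with reoxygenation and under it in both cyclic arrays.

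The medians over the members were equally small. They were 0.05 in chronic and 0.07 in cyclic hypoxia against normoxia, beside 0.03 and 0.04 over genes at or above 100, and the cyclic one turned to -0.07 when the probe sets of a gene were averaged. After reoxygenation they were -0.13 for chronic and 0.06 for cyclic hypoxia against normoxia + 1 h, beside -0.03 and 0.03. Median centring raised the reoxygenated cyclic median to 0.25, with 35 of the 46 members above 0, beside 0.22 over genes at or above 100. After chronic hypoxia with reoxygenation the small displacement was shared by most members: 7 of the 46 lay above normoxia + 1 h, or 15.2%, where 44.9% of genes at or above 100 did. Normoxia + 1 h was itself above normoxia for 32 of the 46 members (69.6%), with a median of 0.07 (0.04 over genes at or above 100). It was so for 59.1% of genes at or above 100 and 73.2% of those at or above 1000. The displacement after chronic hypoxia with reoxygenation was there under each scaling, with 6 members above 0 after quantile normalization and 7 after median centring.

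**Figure D2:**
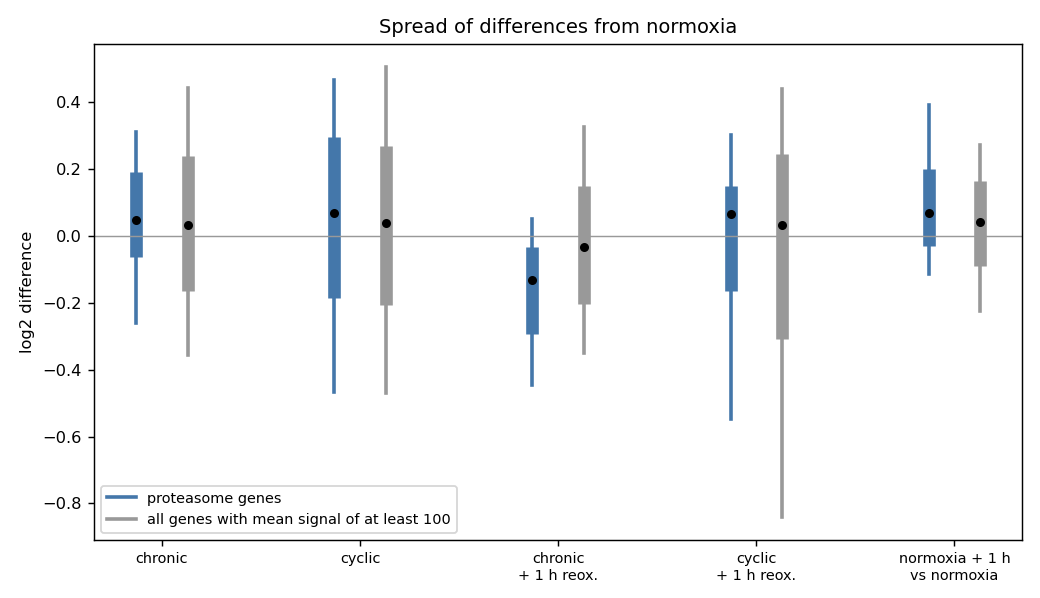
Spread of the log2 differences from normoxia over the 46 proteasome genes (blue) and the 3573 genes with a mean signal at or above 100 (grey); thick bars span the 25th to 75th percentile, thin lines the 10th to 90th, and dots are medians. The proteasome genes lie lowest after chronic hypoxia with reoxygenation, with a median of -0.13, and the last pair shows the 2 control arrays against each other.

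The gate-forming alpha subunits of the core had medians slightly below normoxia in all 4 hypoxia arrays as deposited, though not all genes did. Over the 7 measured genes (Psma1 to Psma7) the median difference was -0.05 in chronic hypoxia, -0.15 in cyclic hypoxia, -0.14 after chronic hypoxia with reoxygenation and -0.08 after cyclic hypoxia with reoxygenation. The cyclic median after reoxygenation turned to 0.11 after median centring, and it was -0.23 after quantile normalization. Psma2 was the gene above normoxia at the end of both regimes, by 0.14 and 0.13, and Psma3 lay above its control in both chronic arrays, by 0.09 and 0.05. Psma5 gave 855 in chronic hypoxia and 803 in cyclic hypoxia, against 1064 in normoxia, and 1 h later 935 in chronic and 942 in cyclic cells, against 1095 in normoxia. It was thus lower in all 4 hypoxia arrays, by at most -0.41 on the log2 scale, but its second probe set differed by 0.32 and 0.07 in chronic and cyclic hypoxia and by -0.15 and -0.05 after reoxygenation. Psma1 gave 604 in chronic hypoxia and 515 in cyclic hypoxia, against 695 in normoxia, and after the last hour 589 in chronic and 515 in cyclic cells, against 611 in normoxia. Its lowest values were in both cyclic arrays. Psma4 gave 821 in chronic hypoxia and 766 in cyclic hypoxia, against 848 in normoxia, and 1 h later 741 in chronic and 821 in cyclic cells, against 856 in normoxia, and was highest in the 2 controls.

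The constitutive beta subunits moved as a block in 1 array. After cyclic hypoxia with reoxygenation all 7 genes from Psmb1 to Psmb7 lay above normoxia + 1 h, by 0.14 (Psmb2) to 0.39 (Psmb3) with a median of 0.27. The median was 0.11 after quantile normalization and 0.46 after median centring, with 7 of 7 above 0 in both. Among the 414 brightest genes on the arrays, those at or above 1000, 79.0% lay above 0 in the same comparison and their median was 0.18. In the other hypoxia arrays the beta median was 0.04 (chronic), -0.01 (cyclic) and -0.08 (chronic with reoxygenation), and with probe sets averaged it was -0.06 in chronic and -0.13 in cyclic hypoxia. The 3 catalytic subunits were above normoxia + 1 h in cyclic hypoxia with reoxygenation. Psmb7 was also above it after chronic hypoxia with reoxygenation, by 0.25. Psmb5, which carries the chymotrypsin-like site, gave 1039.8 in chronic hypoxia and 1057 in cyclic hypoxia, against 962 in normoxia, and after the last hour 876 in chronic and 1262 in cyclic cells, against 1080.1 in normoxia. Psmb6, with the caspase-like site, gave 1338 in chronic hypoxia and 1277 in cyclic hypoxia, against 1399 in normoxia, and 1 h later 1364 in chronic and 1739.7 in cyclic cells, against 1439.6 in normoxia. Psmb7, with the trypsin-like site, gave 2113 in chronic hypoxia and 1991 in cyclic hypoxia, against 2228 in normoxia, and after the last hour 2532 in chronic and 2671 in cyclic cells, against 2126 in normoxia. For all 3 the highest of the 6 signals was in cyclic hypoxia with reoxygenation, as it was for 6 of the 7 beta genes and for 19 of the 46 members. The same array held the highest signal of 2033 of the 7746 genes, 1127 of the 3573 at or above 100 and 212 of the 414 at or above 1000. Psmb1, a non-catalytic beta subunit, gave 1561 in chronic hypoxia and 1464 in cyclic hypoxia, against 1367 in normoxia, and 1 h later 1571 in chronic and 1811 in cyclic cells, against 1578 in normoxia. Psmb4, another, gave 2298 in chronic hypoxia and 1992 in cyclic hypoxia, against 2010.3 in normoxia, and after the last hour 2082 in chronic and 2655 in cyclic cells, against 2108 in normoxia. The brighter and the dimmer probe set of Psmb3 differed by 0.39 and 0.02 in cyclic hypoxia with reoxygenation against normoxia + 1 h. The second probe set of Psmb4, with a mean signal of 945, gave -0.36 in chronic and -0.52 in cyclic hypoxia. The brightest gave 0.19 and -0.01 there. After reoxygenation the second gave 0.21 for both regimes, where the brightest gave -0.02 for chronic and 0.33 for cyclic hypoxia.

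The 2 immunoproteasome subunits measured, Psmb9 and Psmb10, were the core genes lowest relative to normoxia at the end of hypoxia. Psmb10 gave 116 in chronic hypoxia and 104 in cyclic hypoxia, against 188 in normoxia, and 1 h later 145 in chronic and 173 in cyclic cells, against 167 in normoxia. The differences were -0.70 and -0.85 on the log2 scale at the end of exposure and -0.20 and 0.06 after reoxygenation. Psmb10 was thus lowest in the 2 arrays taken at the end of hypoxia. The reoxygenated chronic cells were also below both controls, which themselves differed by -0.17, and the reoxygenated cyclic cells were 0.74 above the cyclic cells collected an hour earlier. Psmb9 was dim, with 15.1 in chronic hypoxia and 16.9 in cyclic hypoxia, against 23.5 in normoxia, and after the last hour 19.6 in chronic and 14.3 in cyclic cells, against 21.4 in normoxia. It was below its control in all 4 hypoxia arrays, by -0.13 to -0.64. Each gene has 1 probe set.

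**Figure D3:**
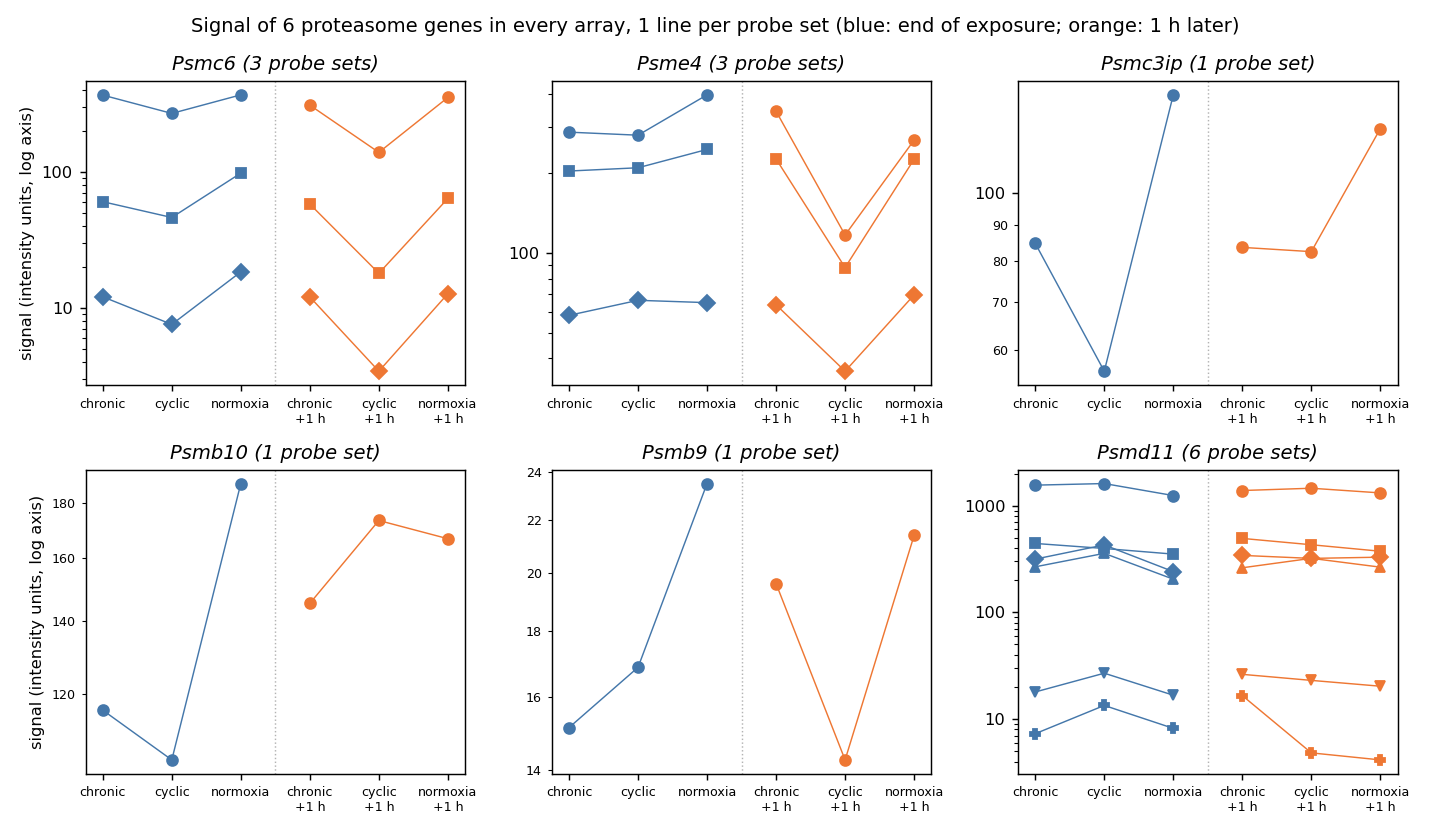
Signal (intensity units, log axis) of 6 genes in every array, with the probe sets of a gene as separate lines, in chronic hypoxia, cyclic hypoxia and normoxia at the end of exposure (blue) and 1 h later (orange). All 3 probe sets of Psmc6 and of Psme4 are lowest in cyclic hypoxia with reoxygenation, Psmb10 is low at the end of both hypoxia regimes, and all 6 probe sets of the lid gene Psmd11 are higher in cyclic hypoxia than in normoxia.

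Within the base of the regulatory particle, 1 ATPase gene stood out. Psmc6 gave 364 in chronic hypoxia, 267 in cyclic hypoxia and 366 in normoxia. An hour later it gave 307 in the reoxygenated chronic cells, 138 in the reoxygenated cyclic cells and 349.9 in normoxia + 1 h. The reoxygenated cyclic array was far below the other 5, with a log2 difference of -1.34 from normoxia + 1 h and -1.15 from the reoxygenated chronic cells. The other 2 probe sets of the gene had values of -1.83 and -1.89 against normoxia + 1 h, and -1.08 and -1.28 in cyclic hypoxia against normoxia, where the brightest had -0.45. These probe sets also gave -0.70 and -0.61 in chronic hypoxia, where the brightest had -0.01.

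The other 5 ATPase genes of the ring did not share this. In cyclic hypoxia with reoxygenation against normoxia + 1 h, Psmc1 differed by -0.16, Psmc2 by 0.10, Psmc3 by 0.18, Psmc4 by -0.56 (0.16 for its second probe set) and Psmc5 by -0.00. Psmc4 gave 727 in chronic hypoxia and 805 in cyclic hypoxia, against 569 in normoxia, and 1 h later 542 in chronic and 587 in cyclic cells, against 866 in normoxia. Its difference of -0.67 after chronic hypoxia with reoxygenation stood beside a control pair in which normoxia + 1 h was 0.60 above normoxia, and its second probe set gave -0.18. Psmd1, a scaffold subunit of the base, gave 667 in chronic hypoxia and 737 in cyclic hypoxia, against 553 in normoxia, and after the last hour 544 in chronic and 407 in cyclic cells, against 588 in normoxia. Its highest signal was in cyclic hypoxia and its lowest in the same regime after reoxygenation. Psmd4, a ubiquitin receptor, gave 630.5 in chronic hypoxia and 697 in cyclic hypoxia, against 567 in normoxia, and 1 h later 598 in chronic and 767 in cyclic cells, against 639 in normoxia. Both of its probe sets past the filter were above the control in both cyclic arrays, by 0.16 to 0.30. Over the 9 base genes the medians were 0.15 (chronic), 0.20 (cyclic), -0.11 (chronic with reoxygenation) and -0.00 (cyclic with reoxygenation).

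The lid genes lay above normoxia at the end of both regimes by their median. Over the 8 genes the median was 0.16 in chronic and 0.38 in cyclic hypoxia, with 7 and 6 genes above normoxia. With the probe sets of each gene averaged the cyclic median was 0.21, close to the 0.20 of the base genes. After reoxygenation it was -0.07 for chronic and 0.15 for cyclic hypoxia, against normoxia + 1 h. The control pair differed in the same direction, with 7 of 8 lid genes higher in normoxia + 1 h than in normoxia and a median of 0.10. Psmd7, a structural partner of the deubiquitinase, gave 261 in chronic hypoxia and 314 in cyclic hypoxia, against 199 in normoxia, and after the last hour 196 in chronic and 274 in cyclic cells, against 259 in normoxia. It was the 1 member past 1.5-fold upwards (0.66 in cyclic hypoxia), while its dim second probe set gave -0.61 there. Between the controls the brightest differed by 0.38 and the second by -0.50. With probe sets averaged, Psmd7 was at 0.02 and the members past 1.5-fold upwards were Psmd11 and Psmd13.

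The lid gene with the most probe sets was Psmd11, a subunit that joins lid, base and core. It gave 1556 in chronic hypoxia and 1611 in cyclic hypoxia, against 1243 in normoxia, and 1 h later 1386 in chronic and 1456 in cyclic cells, against 1316 in normoxia. All 6 of its probe sets were higher in cyclic hypoxia than in normoxia, by 0.17 to 0.83. The probe sets with 0.83 and 0.80 were also higher in normoxia + 1 h than in normoxia, by 0.45 and 0.37. The dimmest probe sets had mean signals of 21.9 and 9.08. Psmd8 gave 2235 in chronic hypoxia and 2272 in cyclic hypoxia, against 1708 in normoxia, and after the last hour 2112 in chronic and 2588 in cyclic cells, against 2164 in normoxia, so that the normoxia array was the lowest of the 6. Psmd13 gave 273 in chronic hypoxia and 367 in cyclic hypoxia, against 259 in normoxia, and 1 h later 235 in chronic and 359 in cyclic cells, against 284 in normoxia. Both cyclic arrays were above the chronic and control arrays of their collection, and its second probe set gave 0.83 and 0.22 against the controls where the brightest gave 0.50 and 0.34. Psmd12 gave 449 in chronic hypoxia and 519.5 in cyclic hypoxia, against 395 in normoxia, and after the last hour 360.1 in chronic and 431 in cyclic cells, against 388 in normoxia. Psmd14, the deubiquitinase, gave 949.7 in chronic hypoxia and 849 in cyclic hypoxia, against 943 in normoxia, and 1 h later 933 in chronic and 839 in cyclic cells, against 943 in normoxia, with the lowest signals in both cyclic arrays. The other lid genes, Psmd3 and Psmd6, differed from their controls by -0.34 to 0.17 by their brightest probe sets. The second probe set of Psmd6, with a mean signal of 397, gave -0.31 in chronic and -0.37 in cyclic hypoxia. The brightest gave -0.00 and 0.17 there. After reoxygenation the second gave 0.13 for chronic and -0.30 for cyclic hypoxia, where the brightest gave -0.28 and -0.34.

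**Figure D4:**
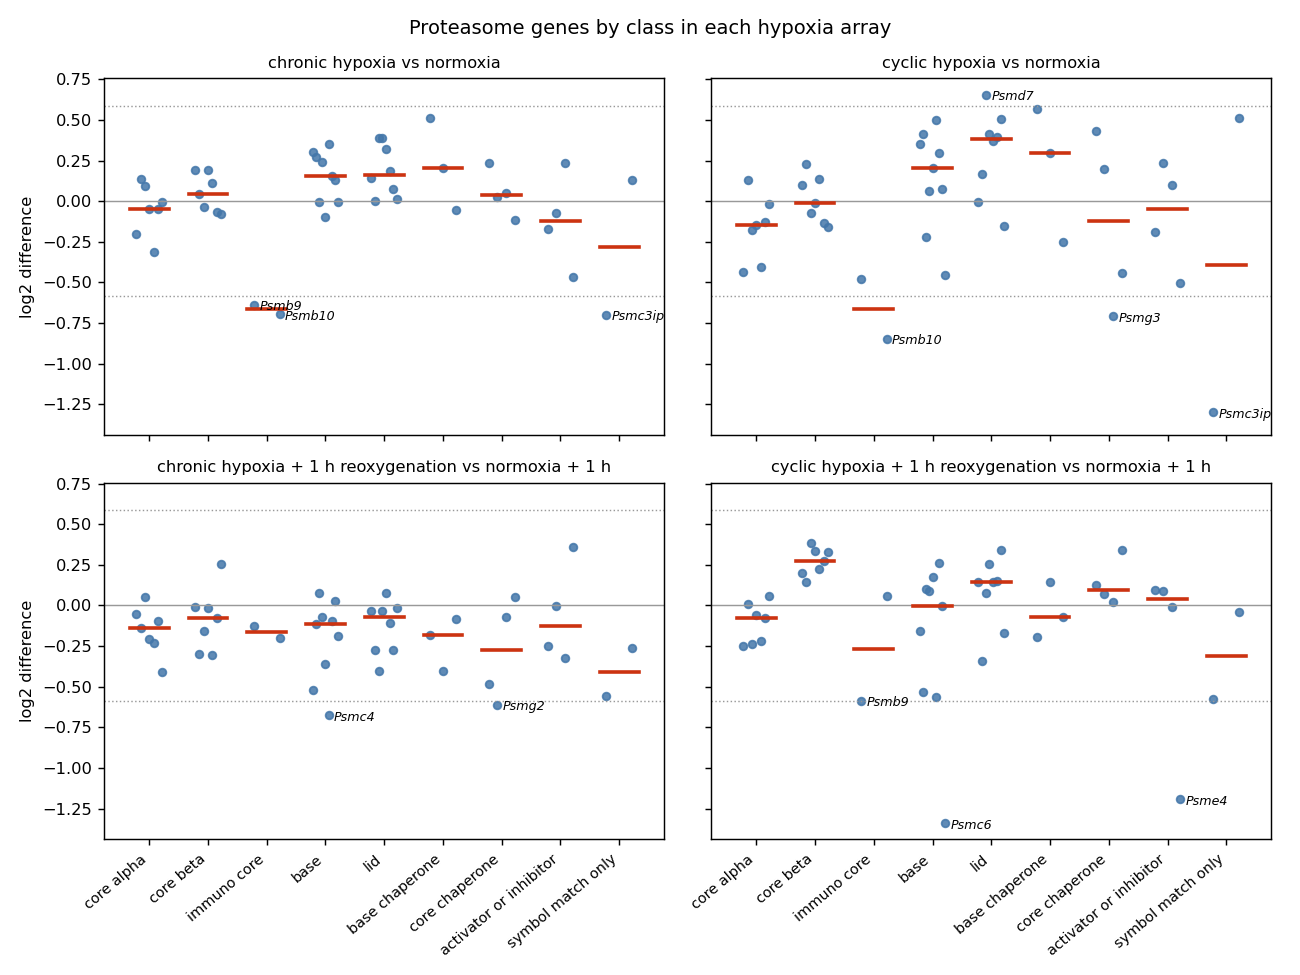
Log2 difference of each gene from its normoxia array (points) and the class median (red bar), by class, for the 4 hypoxia arrays; dotted lines mark 1.5-fold. In cyclic hypoxia with reoxygenation all 7 beta genes lie above 0 while Psmc6 and Psme4 lie below -1.

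The assembly chaperones were mixed. Psmd5, which holds an ATPase pair during base assembly, gave 252 in chronic hypoxia and 263 in cyclic hypoxia, against 177 in normoxia, and after the last hour 188 in chronic and 187 in cyclic cells, against 213 in normoxia. It was higher at the end of both regimes (0.51 and 0.57) and lower after reoxygenation in both (-0.18 and -0.19), each within 1.5-fold. Psmd9, another base chaperone, gave 78.0 in chronic hypoxia and 82.8 in cyclic hypoxia, against 67.5 in normoxia, and 1 h later 66.1 in chronic and 97.0 in cyclic cells, against 87.6 in normoxia. Psmd10 (gankyrin), the remaining one, gave 208 in chronic hypoxia and 182 in cyclic hypoxia, against 216 in normoxia, and after the last hour 218 in chronic and 219 in cyclic cells, against 230.4 in normoxia. These were within 1.5-fold of their controls. Psmg3, a core chaperone, gave 204 in chronic hypoxia and 121 in cyclic hypoxia, against 197 in normoxia, and 1 h later 176 in chronic and 188 in cyclic cells, against 185 in normoxia, so that cyclic hypoxia was the 1 low array. Its partner Psmg4 was lowest in the same array, with 215 in chronic hypoxia and 172 in cyclic hypoxia, against 233 in normoxia, and after the last hour 227 in chronic and 277 in cyclic cells, against 219 in normoxia. Both thus had their minimum in cyclic hypoxia and a higher signal 1 h later, by 0.64 and 0.69. Of the other chaperone pair, Psmg1 was 0.43 above normoxia in cyclic hypoxia, while Psmg2 gave 0.20 there by its brightest probe set and -0.36 by its second. Normoxia + 1 h was itself above normoxia by 0.42 for Psmg1 and by 0.49 for the brightest probe set of Psmg2. The second probe set of Psmg2 gave -0.14 between the controls. Psmg1 gave 268 in chronic hypoxia and 308 in cyclic hypoxia, against 228 in normoxia, and 1 h later 219 in chronic and 333 in cyclic cells, against 306 in normoxia. Psmg2 gave 152 in chronic hypoxia and 171 in cyclic hypoxia, against 149 in normoxia, and after the last hour 137 in chronic and 219.9 in cyclic cells, against 209.6 in normoxia, and after chronic hypoxia with reoxygenation its second probe set gave -0.32 where the brightest gave -0.61.

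Of the activators, Psme4 differed most. Its product is a large cap that opens the core without ATP and is known for work on histones. It gave 286 in chronic hypoxia, 279 in cyclic hypoxia and 396 in normoxia. An hour later it gave 343 in the reoxygenated chronic cells, 117 in the reoxygenated cyclic cells and 267 in normoxia + 1 h. As for Psmc6, the reoxygenated cyclic array was below all others, by -1.19 against normoxia + 1 h and -1.55 against the reoxygenated chronic cells, and the other 2 probe sets gave -1.36 and -0.96 against normoxia + 1 h. The lower signals at the end of exposure (-0.47 and -0.51) stood beside a control pair that differed by -0.57, and the other probe sets gave -0.27 to 0.03 there. The remaining regulators were within 1.5-fold. Psme1, a subunit of the interferon-induced activator, gave 431 in chronic hypoxia and 426 in cyclic hypoxia, against 486 in normoxia, and 1 h later 425 in chronic and 541 in cyclic cells, against 506 in normoxia. Psme3, the nuclear activator, gave 86.2 in chronic hypoxia and 78.3 in cyclic hypoxia, against 73.1 in normoxia, and after the last hour 79.9 in chronic and 99.3 in cyclic cells, against 100.04 in normoxia. By this probe set its widest difference was between the controls. A second probe set, with a mean signal of 86.0 against 86.1, differed by 0.22 between the controls. It gave 0.09 in chronic and -0.29 in cyclic hypoxia, and 0.03 and -0.40 after reoxygenation. Psmf1, an inhibitor of the core, gave 83.1 in chronic hypoxia and 103 in cyclic hypoxia, against 87.4 in normoxia, and 1 h later 98.8 in chronic and 105 in cyclic cells, against 99.1 in normoxia. In cyclic hypoxia with reoxygenation 2 of its 3 dimmer probe sets were higher than normoxia + 1 h, by 1.03 and 0.58.

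The name rule also takes in 2 genes whose products are not subunits, Psmc3ip and Psme3ip1, which bind a base ATPase and an activator. Psmc3ip, best known as a partner of strand-exchange proteins in meiotic recombination, gave 84.8 in chronic hypoxia and 55.9 in cyclic hypoxia, against 138 in normoxia. After the last hour it gave 83.7 in chronic and 82.6 in cyclic cells, against 123 in normoxia + 1 h. All 4 hypoxia arrays were below both controls, with log2 differences of -0.70, -1.30, -0.56 and -0.58. Psme3ip1 gave 242 in chronic hypoxia and 315 in cyclic hypoxia, against 221 in normoxia, and after the last hour 206 in chronic and 239.6 in cyclic cells, against 247 in normoxia.

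Cyclic and chronic hypoxia were also set against each other. At the end of exposure 2 members differed by 1.5-fold or more in either direction, both lower in cyclic hypoxia (Psmg3 and Psmc3ip), which is 4.35% of members, where 16.8% of all genes and 6.55% of genes at or above 100 did. After reoxygenation 5 members did, 10.9%, where 31.9% and 23.3% of genes did: Psmc6 and Psme4 were lower in the cyclic cells, and Psmd13, Psmg1 and Psmg2 were higher. In that comparison 35 of the 46 members were higher in cyclic cells, 32 after quantile normalization, with a median of 0.17, where 54.5% of genes at or above 100 were and their median was 0.05. The beta genes had a median of 0.35 there, with 7 of 7 higher in cyclic cells, 6 of 7 after quantile normalization.

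The last hour was read within each regime. Between the controls 1 member differed by 1.5-fold or more (Psmc4, higher in normoxia + 1 h), where 8.83% of all genes and 1.2% of those at or above 100 did. Reoxygenated chronic cells differed that far from chronic cells in 0 members, where 12% and 3.39% of genes did, and 12 of the 46 members (26.1%) were higher after the last hour, where 48.1% of all genes and 44.3% of those at or above 100 were. After cyclic hypoxia 6 of the 46 members differed, where 26.7% and 18.2% of genes did. Psmc6, Psmd1 and Psme4 were lower after the last hour, by -0.95, -0.86 and -1.25, and Psmb10, Psmg3 and Psmg4 were higher by 0.74, 0.64 and 0.69. Psmb10 and Psmg3 had been 1.5-fold or more below normoxia before that hour and differed from normoxia + 1 h by 0.06 and 0.02 after it.

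A test was possible only by letting the 2 collections stand in for replicates of a regime, in an additive limma fit over all 13556 probe sets with 2 residual degrees of freedom. With Benjamini-Hochberg adjustment at 0.05, 0 members passed for chronic hypoxia (0.0959% of all probe sets did), 0 for cyclic hypoxia (0%), 0 for cyclic minus chronic hypoxia (0%), 0 for the last hour (0%) and 0 for the mean of both regimes (0.0148%). At an unadjusted p under 0.05 there were 1 member for chronic hypoxia (2.17%, where 5.35% of all probe sets were), 4 for cyclic hypoxia (8.70%, against 14.9%), 5 for cyclic minus chronic (10.9%, against 14.5%), 0 for the last hour (against 2.77%) and 3 for the mean of both (6.52%, against 8.90%). In this limma fit cyclic hypoxia differed from normoxia by -0.94 (SE 0.256, adjusted p = 0.176) for Psmc3ip, -0.90 (SE 0.247, adjusted p = 0.180) for Psmc6, -0.85 (SE 0.326, adjusted p = 0.285) for Psme4 and 0.34 (SE 0.134, adjusted p = 0.301) for Psmd8. The members with the lowest mean of both regimes were Psmc3ip (-0.78), Psmc6 (-0.50), Psmb9 (-0.46), Psme4 (-0.45), Psmb10 (-0.42) and Psma5 (-0.29), and those with the highest were Psmd8 (0.26), Psmd11 (0.23), Psmd7 (0.18), Psmd5 (0.18) and Psmd13 (0.16), all with limma adjusted p of 0.405 or more.

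The signal of Psmc6 and Psme4 differed between the 2 cyclic arrays, and the additive fit counts such a difference as noise. Without the cyclic hypoxia array of the end of exposure, the reoxygenated array stands alone for the cyclic regime. The same limma fit then put cyclic hypoxia at -1.29 from normoxia for Psmc6 and -1.40 for Psme4. Both genes stood out by their low signals in that same array, and 1 array carries no error of its own. No test is therefore read from this fit. Without the reoxygenated array instead, the differences were -0.50 for Psmc6 and -0.30 for Psme4. The values of both genes therefore rest on the array with the lowest correlation with the rest.

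The promoters of Psmc6 and Psme4, the members with the widest signal ratios, and of Psmb10, the core gene furthest below normoxia in cyclic hypoxia, are given here to show which hypoxia and stress motifs stand before them. They are the 250 bases upstream of the annotated start on the gene's strand (RefSeq, GRCm38.p6), at chr14:45329574-45329823 on the plus strand for Psmc6, chr11:30771525-30771774 on the plus strand for Psme4 and chr8:105938393-105938642 on the minus strand for Psmb10. Capitals mark matches, on either strand, to the core of the hypoxia response element (ACGTG or GCGTG) or of the antioxidant response element that Nfe2l1 binds (TGACNNNGC).
Psmc6: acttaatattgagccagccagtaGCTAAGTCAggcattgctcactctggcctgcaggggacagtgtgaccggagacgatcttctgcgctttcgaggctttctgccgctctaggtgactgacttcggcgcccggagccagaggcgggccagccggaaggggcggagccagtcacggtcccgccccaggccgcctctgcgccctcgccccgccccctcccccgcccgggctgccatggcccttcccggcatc
Psme4: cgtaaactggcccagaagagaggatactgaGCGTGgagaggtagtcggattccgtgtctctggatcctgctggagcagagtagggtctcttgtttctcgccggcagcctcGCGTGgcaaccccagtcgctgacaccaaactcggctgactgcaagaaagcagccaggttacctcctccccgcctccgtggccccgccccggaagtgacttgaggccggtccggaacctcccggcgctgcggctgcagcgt
Psmb10: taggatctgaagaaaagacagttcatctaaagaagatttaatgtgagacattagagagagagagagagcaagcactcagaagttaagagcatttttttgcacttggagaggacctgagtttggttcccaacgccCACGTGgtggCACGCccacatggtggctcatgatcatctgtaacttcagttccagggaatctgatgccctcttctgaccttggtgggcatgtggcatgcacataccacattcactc
Psmc6 has 1 match to TGACNNNGC, beginning at -227 from the start. Psme4 has GCGTG at -220 and -140, and Psmb10 has ACGTG on both strands at the same palindrome (-116 and -115) and GCGTG at -106.

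Such short motifs are common. Promoters were found for 39 of the 47 genes (42 promoters), and counts were compared with 32851 mouse promoters cut to the same 250 bases, both strands searched. TGACNNNGC was in 5 of the 42, before Psmb5, Psmb6, Psmc6, Psmd9 and Psmd12, which is 11.9% against 10.2% of all promoters. ACGTG was in 9 (21.4% against 16.6%), GCGTG in 17 (40.5% against 28.2%) and CCAAT, the box read by the factor NF-Y, in 15 (35.7% against 33.8%). A match describes these letters only.

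The wider pathway was read from a list of 28 genes outside the name rule, of which 19 were measured past the filter, and the others were not analysed here. In the additive limma fit 0 of the 19 passed an adjusted p of 0.05 in any of the 5 contrasts. Nfe2l1 itself differed from its control by 0.19 in chronic hypoxia, -0.15 in cyclic hypoxia, 0.29 after chronic hypoxia with reoxygenation and -0.19 after cyclic hypoxia with reoxygenation. Ngly1, the enzyme that removes sugar chains from the Nfe2l1 protein, was lower in both cyclic arrays, by -0.61 and -1.13, and close to its controls in both chronic arrays (0.04 and -0.04). Akirin2, which brings proteasomes into the nucleus, was higher in all 4 hypoxia arrays, by 0.23 to 0.50, each within 1.5-fold. Sem1, the smallest lid subunit, was lower at the end of chronic and cyclic hypoxia, by -0.50 and -0.43, and 0.04 and 0.21 above normoxia + 1 h after reoxygenation. Pomp, which matures the core, differed by -0.28 to 0.13. Past 1.5-fold there were 0 list genes higher and 1 lower in chronic hypoxia (Ubqln2, a shuttle for tagged proteins, -0.92), 1 higher (Nploc4, a cofactor of the Vcp segregase, 0.62) and 2 lower (Ubqln4, -0.96, and Ngly1) in cyclic hypoxia, 0 and 1 after chronic hypoxia with reoxygenation (Ecpas, a proteasome scaffold, -0.90), and 0 and 2 after cyclic hypoxia with reoxygenation (Ngly1 and Ecpas, -0.89). These 1 or 2 lower genes of 19 stand beside 8.39%, 14.7%, 5.05% and 19.7% of all genes lower in the same 4 comparisons, in that order.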

How the data were processed

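Gene expression was measured on 6 Affymetrix arrays of B16 cells, 1 per group. The deposited values are intensity signals on a linear scale for 22690 probe sets. The submitters' processing notes name GCOS, and its version and algorithm are not given in the sources used here. Every array had a trimmed mean (2% cut from both tails) of 100 units after rounding, and the authors' scaling was not altered. Values under the 20th percentile (2.10 units) were set to it, log2 was taken, and control probe sets and those with a mean under the 40th percentile (8.33 units) were left out, which left 13556. Genes were named from the platform annotation with current symbols by Entrez identifier. There were 20393 probe sets naming 1 gene, 691 naming several and 1606 naming none, and only those naming 1 gene were used.

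Single arrays were compared as log2 differences. limma 3.58.1 in R 4.3.3 fitted regime and collection with an intensity trend over all 13556 probe sets (two-sided, Benjamini-Hochberg adjusted). The fit was tested beforehand on simulated data in which all hypoxia arrays shared the same large shift, read by the mean of both regimes. That simulation does not cover smaller changes or changes in a single array. Values in every array were given for the 10 highest and 10 lowest members by the mean hypoxia coefficient, members past 1.5-fold in any hypoxia array, and members of special role. Alternatives were quantile normalization, median centring, floors at the 10th and 30th percentiles, no filter, the mean over a gene's probe sets, no intensity trend, and leaving out each array. Members and gene lists were chosen with earlier results of these data known. Array signals carry no counts, so the number of arrays limits the precision. Promoters came from RefSeq (GRCm38.p6).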

Additional observations from a re-analysis of the deposited data

How the results depend on the processing

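Counts of proteasome genes past 1.5-fold in either direction were within 1.5 times those reported under each alternative, with these exceptions. With the mean over a gene's probe sets, there were 0 after chronic hypoxia with reoxygenation (2 reported), 0 between the controls (1 reported) and 1 between reoxygenated and unreoxygenated chronic cells (0 reported). For cyclic against chronic hypoxia at the end of exposure there was 1 after quantile normalization, after median centring, or without Psmc3ip and Psme3ip1, a choice made after seeing the data (2 reported). With median centring there were 12 for cyclic against chronic hypoxia after reoxygenation (5 reported) and 11 for the last hour after cyclic hypoxia (6 reported), where the centring itself moves the reoxygenated cyclic array by 0.19. Medians over the members moved by less than 0.0681, the size of the same median between the controls, except in these cases. Averaging probe sets turned the cyclic hypoxia median to -0.0691 (0.0689 reported). Median centring raised the medians of the reoxygenated cyclic array to 0.25 against normoxia + 1 h, 0.37 against reoxygenated chronic cells and 0.29 against cyclic hypoxia (0.06, 0.17 and 0.12 as deposited), and quantile normalization gave 0.0408 for the last.

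Averaging probe sets moved the difference from normoxia to 0.02 for Psmd7 and -0.94 for Psmc6 in cyclic hypoxia, where Psmd11 and Psmd13 then passed 1.5-fold upwards, and to -1.69 for Psmc6 after its reoxygenation. In the limma fits the count of members called was 0 in each alternative that kept every array. Leaving out an array leaves a single array for its regime, so no count of members is read from those fits. The limma fits are blocked by collection, and the labels give no replicate numbers for any other pairing. Dim members such as Psmb9 are limited by signal over background.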
